A study of Mus musculus with 12 samples.

Results

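Venus-high follicular helper T (Tfh) cells were compared with PD1-intermediate T helper (Th) cells, as 3 arrays against 2 of the 12 arrays in the study. The arrays were chosen by their titles, and no measured value entered the choice. All mice were S1pr2V/+, in which the fluorescent protein Venus reports S1pr2, a gene that encodes a receptor for sphingosine-1-phosphate. They had received chicken gamma globulin in complete Freund's adjuvant under the skin 10 days before their lymph node cells were sorted. Venus-high Tfh cells were sorted as CD4+ CXCR5+ CD44-high cells with high PD1 and high Venus, from pools of 4, 6 and 4 mice for arrays 1, 2 and 3. PD1-intermediate Th cells were CD4+ CXCR5+ CD44-high cells with intermediate PD1 and no gate on Venus, from pools of 4 mice for each of 2 arrays. Venus-low Tfh cells (3 arrays), sorted like the Venus-high cells but with low Venus, are given beside both groups. The other 4 arrays, of PD1-low Th cells and naive CD4 T cells, entered the fit for its estimate of the spread. The reporter allele and the immunization were common to all lymph node groups, the ages of the mice are not given, and each array is a pool. The p-values therefore measure the spread between pools, and the number of arrays limits their precision. In a fit without a term for the array sets described below, that spread also holds the differences between these sets.

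Tfh cells are CD4 T cells that carry CXCR5, the receptor for the follicular chemokine CXCL13, and help B cells in germinal centres through CD40 ligand, IL-21 and IL-4. PD1, an inhibitory receptor encoded by Pdcd1, is highest on the Tfh cells of the germinal centre, and CXCR5+ cells with less PD1 include cells at the border of T zone and follicle and regulatory T cells of the follicle. S1PR2 couples to G proteins that restrain migration and holds germinal centre B cells and Tfh cells inside the follicle.

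Each array gave log2 signals of 45101 probe sets, made by the authors with GCRMA, from 20 ng of RNA per pool. One probe set per gene was kept, and 9893 genes that reached log2 5 on at least 2 arrays were tested. By the quantiles of their values the 12 arrays fell into 3 sets that the labels do not name, with 75% quantiles of 8.50 to 8.55, 8.68 to 8.76 and 9.39 to 9.42. Venus-high arrays 1, 2 and 3 lay in sets 1, 2 and 3, and both PD1-intermediate arrays lay in set 3. The difference between Venus-high array 3 and the mean of both PD1-intermediate arrays is therefore the comparison inside 1 set, and it is given beside the main value as the within-set difference. The main values come from 1 limma fit of 5 groups, as log2 Venus-high minus PD1-intermediate with the standard error (SE) and the adjusted p. A fit with the array set as a term is named where its values are given. Over all genes the median difference was -0.42 in the main fit, -0.0062 with the set term and -0.0045 within the set, so a single value near -0.42 in the main fit is the middle of all genes. The median SE was 0.449 without and 0.191 with the set term. Where all arrays of 1 group lay under log2 5, the fold is a lower bound against that level.

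S1pr2, Pdcd1, Cxcr5, Cd44 and Cd4 were used to sort the cells, directly or through the reporter, so their values check the labels and are no findings. S1pr2 had 13.09, 12.58 and 12.99 in Venus-high Tfh, 10.68, 9.86 and 10.21 in Venus-low Tfh, and 9.33 and 9.28 in PD1-intermediate Th. All Venus-high arrays were above all others, by 3.58 ± 0.38 against PD1-intermediate Th, which was itself well above the level of 5. Pdcd1 had 14.52, 14.88 and 14.83 in Venus-high Tfh and 13.17 and 12.59 in PD1-intermediate Th, a difference of 1.86 ± 0.51 that did not pass the main test (adjusted p = 0.123) and passed with the set term (2.18, adjusted p = 0.0312). Cxcr5 had 14.27, 14.26 and 14.28 in Venus-high Tfh and 13.92 and 13.58 in PD1-intermediate Th, a difference of 0.52 ± 0.43 (adjusted p = 0.544). Cd44 differed by -0.86 ± 0.66 and Cd4 by -0.41 ± 0.35, values that were -0.026 and 0.017 with the set term. Ascl2 was high and Ccr7 low in the Venus-high cells, as given below, so the markers of the label stood as labelled.

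The T cell genes were high in both groups, and most genes that define other cells were at the bottom of the scale. The summed log2 signal of the 11 T cell identity genes with a probe set ran from 17.36 to 17.53 in Venus-high Tfh and from 17.65 to 17.66 in PD1-intermediate Th. Of 12 B cell markers with a probe set, 7 were under log2 5 on all 5 arrays, as were 5 of 9 germinal centre B and plasma cell markers, 7 of 10 markers of CD8, natural killer (NK) and gamma delta T cells, 13 of 16 myeloid markers and all 8 stromal and red cell markers. Cd79a (B cell receptor chain), Cd8a, the NK receptor gene Ncr1 and the myeloid genes Lyz2, Csf1r and Itgam were all between 2.13 and 2.55 on the 5 arrays. The summed B cell signal nevertheless ran from 12.23 to 13.06 in Venus-high Tfh and from 11.13 to 11.24 in PD1-intermediate Th, and the summed myeloid signal from 9.32 to 9.48 against 8.30 to 8.41. In Venus-high Tfh the largest gene of these sums was Cd22 for B cells and Cd68 for myeloid cells. In PD1-intermediate Th it was Cd72 for B cells and Zbtb46, the gene of a dendritic cell factor, for myeloid cells. Zbtb46 had 7.37 and 7.48 there, 5.25, 1.97 and 6.95 in Venus-high Tfh, and 5.25, 1.97 and 6.89 in Venus-low Tfh. Its level thus went with the array set. The sum for CD8, NK and gamma delta T cells ran from 7.51 to 8.01 in Venus-high Tfh and from 9.34 to 9.62 in PD1-intermediate Th. The part of other cells in the results was not tested beyond these levels. In sorted bulk samples, fewer cells of a type and less RNA per cell cannot be told apart.

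In the main fit 263 genes (2.66% of those tested) differed at an adjusted p under 0.05, with 119 (1.2%) higher and 144 (1.46%) lower in Venus-high Tfh. With the array set as a term 1066 genes (10.8%) differed, 602 (6.09%) higher and 464 (4.69%) lower, and the share of higher genes was 45.2% without and 56.5% with the term. Of the 263 genes, 260 passed in both fits with the same sign. The other 3 were Hsf2bp, Klf2 and Zbtb10. All 263 had the same sign within the set, and 256 of them differed there by more than 1 log2 unit. The shared sign was fixed in advance and is no separate check. The 3 arrays of the within-set difference also enter the main one, and the 2 groups did not overlap for any of the 263 genes. In the plot of both differences the genes past the threshold run along the line of equal values, whereas the bulk of the other genes is shifted to the left by the median. Groups that do not overlap are a weak criterion here, since the arrays of 44.8% of all genes tested did not overlap, 9.9% with Venus-high above and 34.9% with Venus-high below. Both PD1-intermediate arrays weighed on the count: 100 genes passed without array 1 and 67 without array 2.

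**Figure D1:**
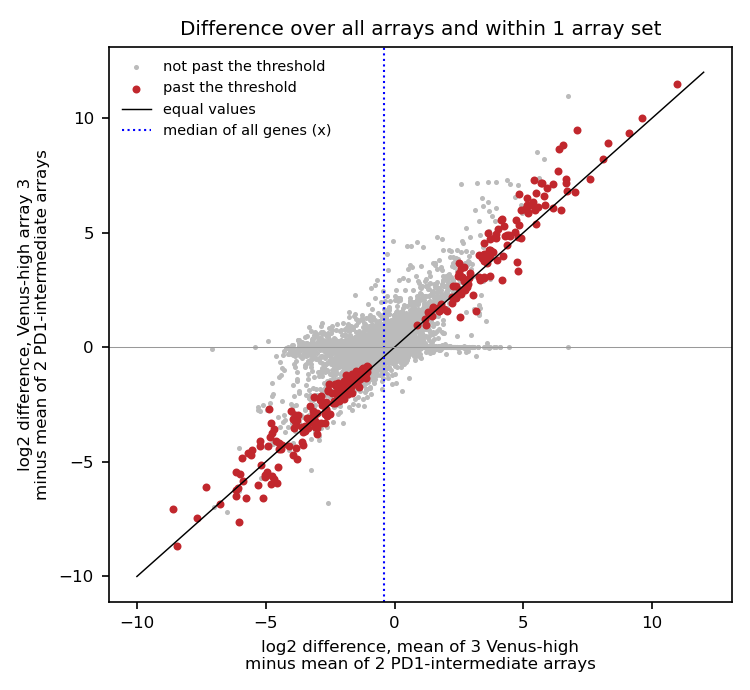
Each point is 1 of 9893 genes: x, log2 difference between the means of 3 Venus-high and 2 PD1-intermediate arrays; y, log2 difference between Venus-high array 3 and the mean of both PD1-intermediate arrays, which share an array set. The 263 genes past the threshold (red) have the same sign on both axes. This had to be so, since both axes share arrays and the groups did not overlap for these genes. The dotted line marks the median of all genes on x, -0.42.

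The largest rises took genes from the bottom of the scale in PD1-intermediate Th to high levels in Venus-high Tfh. Gal, the gene of the neuropeptide galanin, had 13.24, 12.45 and 13.62 in Venus-high Tfh, 8.45, 6.69 and 11.19 in Venus-low Tfh, and 2.12 and 2.16 in PD1-intermediate Th. The 3 groups did not overlap, and Venus-high was at least 275-fold above PD1-intermediate Th (10.96 ± 1.11, adjusted p = 0.0013). Ascl2, a basic helix-loop-helix (bHLH) factor that induces Cxcr5 in mouse T cells, had 12.23, 11.91 and 12.68 in Venus-high Tfh, 9.47, 7.83 and 10.58 in Venus-low Tfh, and 2.95 and 2.37 in PD1-intermediate Th. It was at least 155-fold higher (9.61 ± 0.66, adjusted p = 0.000198). The Cxcr5 signals differed by 0.52, but both groups were sorted as CXCR5+, and a link between Ascl2 and Cxcr5 was not tested. Cxxc5, the gene of a CXXC zinc finger protein, had 12.49, 12.68 and 13.00 in Venus-high Tfh, 8.51, 8.54 and 10.62 in Venus-low Tfh, and 3.76 and 3.50 in PD1-intermediate Th, at least 211-fold higher (9.09 ± 0.81, adjusted p = 0.000637).

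Further genes of the 15 largest rises belonged to many families. Nrbp2, a pseudokinase gene, was at least 112-fold higher, with 11.70, 11.31 and 12.42 in Venus-high Tfh and 3.54 and 3.49 in PD1-intermediate Th. Cbfa2t3, which encodes a transcriptional corepressor of the ETO family, was at least 125-fold higher, with 11.71, 12.11 and 12.09 against 4.78 and 2.99. Its SD in Venus-high Tfh was only 0.22 over arrays of 3 sets. Padi4, the enzyme that turns arginine into citrulline in proteins, had 13.73, 13.08 and 13.01 in Venus-high Tfh against 6.80 and 4.57 in PD1-intermediate Th (7.59 ± 0.73). Dnase1l3, a secreted DNA-degrading enzyme, had 11.10, 11.51 and 12.30 against 6.15 and 3.77, and Rgs16, a brake on G protein signalling, had 10.98, 11.08 and 10.37 against 5.25 and 3.48. In all 3 genes PD1-intermediate array 1 was above log2 5 and array 2 below it, so these differences rest in part on a value under that level. Fam71b had 11.03, 11.28 and 11.34 against 4.80 and 4.22 and was at least 74.3-fold higher. Acod1, the enzyme that makes itaconate in activated macrophages, had 8.35, 8.72 and 9.30 in Venus-high Tfh against 2.14 and 2.14 in PD1-intermediate Th, at least 13.8-fold. Cc2d2a, which builds the base of the cilium, had 7.51, 7.43 and 10.88 against 2.22 and 2.25, and Il13ra1, a receptor chain for IL-13 and IL-4, had 7.82, 8.42 and 10.15 against 2.39 and 2.51. Venus-high array 3 was the highest for these last 3 genes, and it is also the array that shares a set with PD1-intermediate Th.

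Apoe and Apoc4 stood out by their pattern. Apoe, the apolipoprotein E gene, had 7.26, 8.66 and 11.56 in Venus-high Tfh, 2.10, 2.15 and 2.07 in Venus-low Tfh, and 2.06 and 2.07 in PD1-intermediate Th. Apoc4, its neighbour in the apolipoprotein cluster of chromosome 7, had 7.33, 7.67 and 10.94 in Venus-high Tfh, 2.13, 2.13 and 2.10 in Venus-low Tfh, and 2.09 and 2.10 in PD1-intermediate Th. Both genes were therefore at the bottom of the scale in every cell group given here but the Venus-high one, where their 3 arrays spanned over 3 log2 units (SD 2.19 and 1.99). The lower bounds were 17.9-fold for Apoe (7.09 ± 0.98, adjusted p = 0.00613) and 12.5-fold for Apoc4 (6.55 ± 0.89, adjusted p = 0.00581). Lgals3, the gene of the lectin galectin-3, had 10.61, 9.68 and 9.81 in Venus-high Tfh, 10.52, 11.32 and 10.62 in Venus-low Tfh, and 2.86 and 3.22 in PD1-intermediate Th. Here both Tfh groups overlapped, and Venus-high Tfh was at least 32.7-fold above PD1-intermediate Th (6.996 ± 0.35, adjusted p = 8.6e-05).

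The promoters of the genes at the head of both lists are shown to give their sequence beside the size of the change, as the 3 largest rises and 2 largest falls that have a single promoter entry in RefSeq (build GRCm38.p6). Each window runs from 250 bases before to 50 bases after the start of the gene, 5′ to 3′ on the strand of the gene. Capitals mark the E-box hexamers searched, CAGCTG and CAGGTG (the last also as CACCTG, its other strand), since E-boxes are the sites of the bHLH class to which ASCL2 belongs. The windows were chr19:3414495-3414794 (minus strand) for Gal, chr7:142969215-142969514 (minus) for Ascl2, chr4:140774154-140774453 (minus) for Padi4, chr7:140218017-140218316 (plus) for Cd163l1 and chr7:114117732-114118031 (minus) for Rras2.
Gal: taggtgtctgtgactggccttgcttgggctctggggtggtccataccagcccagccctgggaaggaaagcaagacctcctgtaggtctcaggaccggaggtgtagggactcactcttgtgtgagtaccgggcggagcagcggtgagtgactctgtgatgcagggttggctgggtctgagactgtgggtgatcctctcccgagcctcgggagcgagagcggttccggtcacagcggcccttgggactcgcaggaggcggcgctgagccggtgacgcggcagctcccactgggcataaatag
Ascl2: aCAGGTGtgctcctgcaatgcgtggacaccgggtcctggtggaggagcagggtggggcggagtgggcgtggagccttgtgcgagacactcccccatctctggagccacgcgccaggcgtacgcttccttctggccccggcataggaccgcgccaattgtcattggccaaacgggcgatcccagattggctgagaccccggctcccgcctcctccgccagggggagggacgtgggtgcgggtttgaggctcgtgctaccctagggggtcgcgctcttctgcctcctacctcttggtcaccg
Padi4: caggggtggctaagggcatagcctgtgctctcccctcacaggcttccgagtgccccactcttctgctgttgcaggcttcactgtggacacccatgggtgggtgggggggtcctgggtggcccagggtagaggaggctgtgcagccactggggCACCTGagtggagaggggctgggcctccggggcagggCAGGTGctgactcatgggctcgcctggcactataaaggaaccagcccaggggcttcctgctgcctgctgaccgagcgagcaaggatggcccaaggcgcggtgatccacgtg
Cd163l1: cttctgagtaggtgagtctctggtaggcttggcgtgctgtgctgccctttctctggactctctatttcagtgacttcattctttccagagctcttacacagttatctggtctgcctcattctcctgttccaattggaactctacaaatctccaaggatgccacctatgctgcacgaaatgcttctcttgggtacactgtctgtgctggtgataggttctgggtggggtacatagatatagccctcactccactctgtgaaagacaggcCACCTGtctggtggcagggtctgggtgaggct
Rras2: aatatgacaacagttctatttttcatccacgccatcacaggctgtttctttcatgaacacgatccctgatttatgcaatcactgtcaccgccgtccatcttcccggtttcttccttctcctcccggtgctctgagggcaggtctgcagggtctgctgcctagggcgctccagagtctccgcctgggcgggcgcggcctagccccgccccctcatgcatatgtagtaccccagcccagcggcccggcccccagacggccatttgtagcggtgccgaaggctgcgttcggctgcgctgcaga
Ascl2 held 1 match, 249 bases before its start, Padi4 held 2 and Cd163l1 held 1, while Gal and Rras2 held 0. Among all promoters of the RefSeq set (32851) 32.9% held a match. Matches stood in 8 of the 15 promoters listed for the rises (12 genes with an entry) and in 8 of the 18 listed for the falls (11 genes). A match is a description of the letters in the window, and its absence says nothing about a factor.

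The largest falls took genes with high levels in PD1-intermediate Th to low levels in Venus-high Tfh. Itgae, the integrin chain that binds E-cadherin (CD103), had 2.31, 2.38 and 4.67 in Venus-high Tfh, 8.29, 7.89 and 10.01 in Venus-low Tfh, and 11.70 and 11.76 in PD1-intermediate Th. It was at least 106-fold lower in Venus-high Tfh (-8.61 ± 1.56, adjusted p = 0.0224). Ctla2a, a cysteine protease inhibitor gene, had 3.21, 2.45 and 2.49 in Venus-high Tfh, 7.60, 9.27 and 8.58 in Venus-low Tfh, and 10.98 and 11.37 in PD1-intermediate Th, at least 72.2-fold lower. Cd163l1, a scavenger receptor gene known from gamma delta T cells, had 2.57, 2.47 and 4.32 in Venus-high Tfh, 6.44, 7.94 and 8.68 in Venus-low Tfh, and 10.34 and 10.52 in PD1-intermediate Th. In all 3 genes Venus-low Tfh lay between the groups and the ranges did not overlap. Rras2, a small GTPase gene related to Ras, had 3.18, 3.70 and 3.31 in Venus-high Tfh against 10.01 and 10.32 in PD1-intermediate Th and was at least 35.9-fold lower.

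Others of the 15 largest falls differed in where Venus-low Tfh stood. Acvrl1, which encodes the TGF-beta superfamily receptor ALK1, had 2.18, 2.34 and 2.22 in Venus-high Tfh, 2.20, 2.39 and 2.21 in Venus-low Tfh, and 8.07 and 8.60 in PD1-intermediate Th. Both Tfh groups were thus at the bottom of the scale, and Venus-high Tfh was at least 10.1-fold lower (-6.09 ± 0.36, adjusted p = 0.000102). Cyp2s1, a cytochrome P450 gene, had 3.97, 4.95 and 2.07 in Venus-high Tfh against 9.26 and 10.13, and Myl4, a myosin light chain gene, had 4.35, 3.78 and 2.84 against 9.43 and 9.39. Abcg3, a transporter gene, had 3.38, 4.48 and 5.56 against 10.00 and 10.77, Adam19, a metalloprotease gene, 4.21, 6.90 and 5.60 against 11.31 and 11.55, and Nebl, the gene of the actin-binding protein nebulette, 5.89, 5.58 and 7.36 against 12.29 and 11.64. Nebl had 3 kept probe sets, of which 2 had this sign. Arid3b, a DNA-binding factor gene, joined the 10 largest falls within the set, with 5.99, 5.32 and 3.41 in Venus-high Tfh against 9.97 and 10.04 in PD1-intermediate Th. Of the 30 largest changes, 18 (10 rises and 8 falls) kept their call whichever of the 5 arrays was left out. The other 12 lost it without PD1-intermediate array 1 and also without array 2, with adjusted p from 0.058 to 0.229 and no change of sign. They were Apoe, Apoc4, Acod1, Cc2d2a and Il13ra1 among the rises and Itgae, Rras2, Il2ra, Cyp2s1, Abcg3, Adam19 and Nebl among the falls. Itgae and Il2ra also lost it without Venus-high array 1 and without array 2 (adjusted p from 0.0743 to 0.0862).

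**Figure D2:**
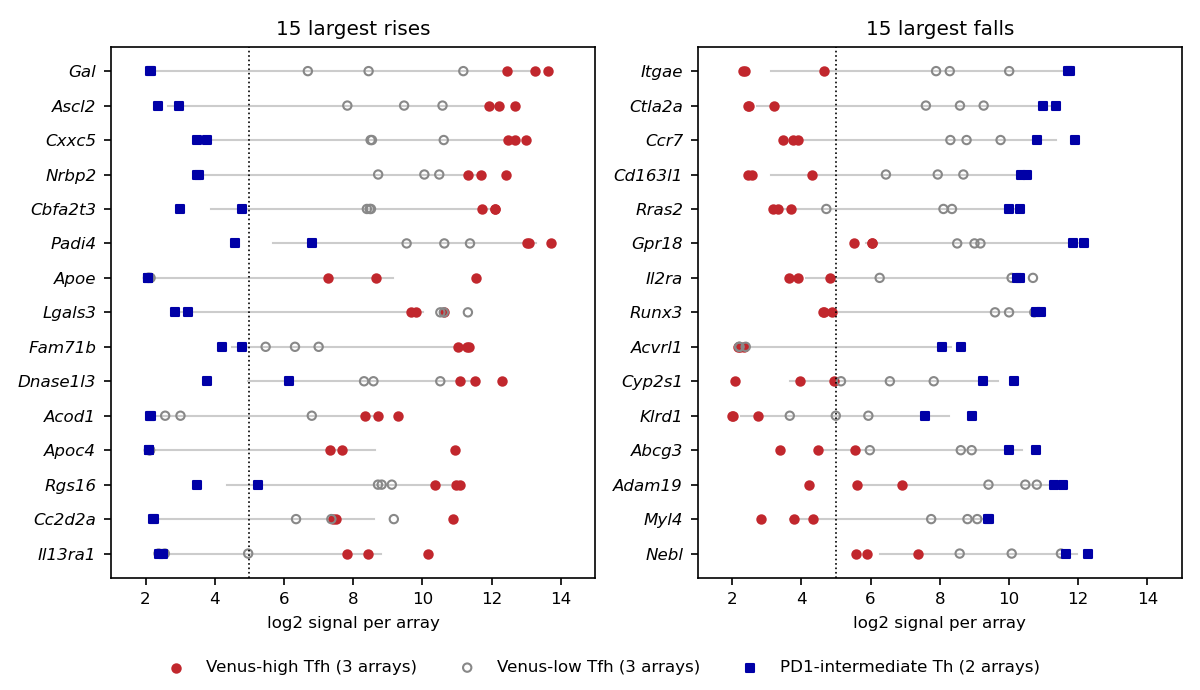
Log2 signal of the 15 largest rises (left) and 15 largest falls (right) on each array of Venus-high Tfh (red, 3 arrays), Venus-low Tfh (open circles, 3 arrays) and PD1-intermediate Th (blue squares, 2 arrays). The grey bar joins the means of Venus-high and PD1-intermediate, and the dotted line is log2 5. Apoe and Apoc4 are near 2 in both other groups, and Lgals3 and Acvrl1 overlap between both Tfh groups.

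Ccr7, S1pr1 and other genes of a list of T zone homing and egress fell in Venus-high Tfh. The list also holds genes with other roles, such as Il7r, Klf2, Itgb7 and Gpr183. Of the 11 measured genes of the T zone homing and egress list, 6 fell and 0 rose, against 1.46% and 1.2% of all genes, and with the set term 8 fell and 0 rose, against 4.69% and 6.09%. The median difference of the list was -2.32, or -1.59 with the set term. Ccr7, the receptor for the T zone chemokines CCL19 and CCL21, had 3.46, 3.74 and 3.91 in Venus-high Tfh, 8.31, 9.76 and 8.77 in Venus-low Tfh, and 10.82 and 11.91 in PD1-intermediate Th. It was at least 82.4-fold lower in Venus-high Tfh (-7.66 ± 0.45, adjusted p = 0.000102), with Venus-low Tfh apart from both groups. S1pr1, the receptor that guides exit from lymph nodes, had 2.13, 2.75 and 2.62 in Venus-high Tfh, 3.96, 6.34 and 5.74 in Venus-low Tfh, and 6.56 and 7.20 in PD1-intermediate Th. S1pr2 was higher in the same pools, but the sort on its reporter had fixed that in advance. Il7r, the IL-7 receptor chain of naive and memory T cells, had 8.23, 7.42 and 8.73 in Venus-high Tfh and 12.68 and 13.39 in PD1-intermediate Th (-4.91 ± 0.43, adjusted p = 0.000637).

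Klf2, a factor that drives S1pr1 expression, had 4.51, 2.98 and 4.92 in Venus-high Tfh and 7.13 and 9.01 in PD1-intermediate Th (-3.93 ± 0.81, adjusted p = 0.0414). It lost its call with the set term (-3.23, adjusted p = 0.0577) and without Venus-high array 1 or 2 or either PD1-intermediate array, with adjusted p from 0.0735 to 0.457. Itgb7 (-1.36 ± 0.19), an integrin chain of gut homing, and Gpr183 (-1.60 ± 0.30), the EBI2 receptor that draws cells to the outer follicle, made smaller steps. Itgb7 had 12.61, 12.66 and 12.57 in Venus-high Tfh and 13.89 and 14.05 in PD1-intermediate Th, and Gpr183 had 11.35, 11.30 and 11.35 and 13.03 and 12.84. Gpr183 lost its call without any 1 of the 5 arrays (adjusted p from 0.0569 to 0.254), and S1pr1 and Itgb7 without either PD1-intermediate array (up to 0.135 and 0.126). Gpr18, a lipid receptor gene next to Gpr183 on chromosome 14, had 6.04, 6.03 and 5.52 in Venus-high Tfh, 8.50, 9.17 and 9.002 in Venus-low Tfh, and 11.84 and 12.18 in PD1-intermediate Th (-6.14 ± 0.33, adjusted p = 8.6e-05). It kept its call without any 1 array.

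In the list of naive and resting T cell genes 6 of 20 measured genes fell and 0 rose, against 1.46% and 1.2% of all genes. With the set term 9 fell and 0 rose, against 4.69% and 6.09%, with medians of -1.83 and -0.84. Besides Ccr7, Il7r, S1pr1 and Klf2, which it shares with the T zone homing and egress list, these were Actn1, an actin crosslinker gene, and Satb1, a chromatin organizer gene. Actn1 had 9.75, 10.00 and 9.23 in Venus-high Tfh, 11.47, 11.76 and 11.06 in Venus-low Tfh, and 12.64 and 12.81 in PD1-intermediate Th (-3.07 ± 0.30, adjusted p = 0.0012). Satb1 had 10.25, 11.16 and 11.21 in Venus-high Tfh, 11.59, 12.21 and 12.37 in Venus-low Tfh, and 13.61 and 13.70 in PD1-intermediate Th, and lost its call without PD1-intermediate array 2 (adjusted p = 0.0635). In both genes the groups were ordered Venus-high, Venus-low, PD1-intermediate from low to high without overlap.

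Some regulatory T cell genes fell in Venus-high Tfh. Of 17 measured genes 5 fell and 0 rose, against 1.46% and 1.2% of all genes, and with the set term 6 fell and 2 rose, against 4.69% and 6.09%, with medians of -3.10 and -0.75. The 2 that passed upward with the set term alone were Nt5e, the ectoenzyme CD73 (1.82, adjusted p = 0.0051; main 0.77, adjusted p = 0.574), and Nrp1, the receptor neuropilin 1 (1.38, adjusted p = 0.0312; main 0.90, adjusted p = 0.411). Foxp3, the defining factor of regulatory T cells, had 6.19, 5.73 and 6.07 in Venus-high Tfh, 11.16, 10.71 and 11.13 in Venus-low Tfh, and 11.05 and 11.34 in PD1-intermediate Th (-5.20 ± 0.52, adjusted p = 0.0012). Venus-low Tfh and PD1-intermediate Th overlapped, so the step lay between the Venus-high cells and both other CXCR5+ groups. Gpr83, a receptor enriched in regulatory T cells, had 4.84, 3.10 and 5.27 in Venus-high Tfh, 8.08, 8.40 and 8.68 in Venus-low Tfh, and 9.47 and 10.51 in PD1-intermediate Th. Ikzf4, the gene of the factor Eos, had 2.25, 3.61 and 4.47 in Venus-high Tfh, 6.46, 9.25 and 9.65 in Venus-low Tfh, and 8.56 and 9.37 in PD1-intermediate Th, at least 15.7-fold lower in Venus-high Tfh. Il2ra, the high-affinity IL-2 receptor chain (CD25), had 3.65, 3.91 and 4.83 in Venus-high Tfh, 6.26, 10.69 and 10.08 in Venus-low Tfh, and 10.23 and 10.31 in PD1-intermediate Th, at least 38.5-fold lower. Foxp3 and Gpr83 kept their calls without any 1 array, whereas Ikzf4 lost it without Venus-high array 1 or 2 or either PD1-intermediate array (adjusted p from 0.0807 to 0.288), and 1 of its 3 kept probe sets had the other sign. Whether the share of regulatory T cells or the level per cell differed was not measured.

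Il2 and 1 gene of its response were lower as well. Il2 itself had 2.42, 2.23 and 2.39 in Venus-high Tfh, 2.42, 5.25 and 4.999 in Venus-low Tfh, and 6.75 and 6.89 in PD1-intermediate Th, at least 3.53-fold lower. Cish, a feedback inhibitor induced by STAT5, had 3.39, 2.72 and 4.72 in Venus-high Tfh, 6.38, 8.35 and 8.41 in Venus-low Tfh, and 8.41 and 8.17 in PD1-intermediate Th, at least 9.81-fold lower. Of the 15 genes of the IL-2 and STAT5 list only Il2ra and Cish passed in the main fit, both lower, and 3 fell with the set term, with medians of -0.56 and -0.21. Over all genes 1.46% fell in the main fit and 4.69% with the set term. Il2 and Cish lost their calls without Venus-high array 2 or either PD1-intermediate array, with adjusted p from 0.0512 to 0.158. Among 19 measured cytokine receptors 5 fell and 1 rose, against 1.46% and 1.2% of all genes (7 and 1 with the set term, against 4.69% and 6.09%), and the median was -1.46, or -0.60 with the set term. The rise was Il13ra1. Beside Il2ra and Il7r the falls were Il18rap, an IL-18 receptor chain, with 3.38, 3.64 and 6.82 in Venus-high Tfh against 9.31 and 9.70, Il4ra (-2.29 ± 0.34) and Il17ra (-1.46 ± 0.25).

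Il4ra had 7.36, 7.78 and 8.54 in Venus-high Tfh against 10.07 and 10.30 in PD1-intermediate Th. Of the IL-4 receptor chains given here, Il4ra was thus lower and Il13ra1 higher. Il18rap lost its call without Venus-high array 1 or 2 or either PD1-intermediate array (adjusted p from 0.137 to 0.386), as did Il17ra (0.0517 to 0.212), and Il4ra lost it without either PD1-intermediate array (0.0697 and 0.132). Of the 15 measured TGF-beta receptors and Smads 2 fell and 0 rose, against 1.46% and 1.2% of all genes (3 and 1 with the set term, against 4.69% and 6.09%), with medians of -0.48 and -0.078. They were Acvrl1, given above, and Tgfbr3, the co-receptor betaglycan, with 8.88, 9.02 and 9.80 in Venus-high Tfh against 12.17 and 12.06, a call lost without Venus-high array 1 or 2 or either PD1-intermediate array (adjusted p from 0.123 to 0.291).

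Runx3, the factor of Th1 and CD8 cells that represses Cd4, had 4.65, 4.88 and 4.63 in Venus-high Tfh, 9.60, 10.00 and 10.73 in Venus-low Tfh, and 10.93 and 10.78 in PD1-intermediate Th. The 5 arrays of other CXCR5+ cells lay more than 4 log2 units above all Venus-high arrays, and Venus-high Tfh was at least 58.0-fold below PD1-intermediate Th (-6.14 ± 0.36, adjusted p = 0.000102). In the Th1 and cytotoxic list of 19 measured genes 3 fell and 0 rose, against 1.46% and 1.2% of all genes (3 and 2 with the set term, against 4.69% and 6.09%), with medians of -3.22 and -1.16. The other falls were Il18rap and Txk, a Tec-family kinase of Th1 cells, with 2.94, 4.73 and 4.63 in Venus-high Tfh against 8.54 and 8.85, which lost its call without any 1 of the 5 arrays (adjusted p from 0.0577 to 0.308). Ifng, the Th1 cytokine, had 7.43, 8.22 and 11.21 in Venus-high Tfh against 5.42 and 5.13 in PD1-intermediate Th, which passed only with the set term (5.03, adjusted p = 0.0074; main 3.68, adjusted p = 0.146). Of 6 Th17 genes 0 passed in either fit; the smallest p were those of Ccr6 (-4.43, adjusted p = 0.0801, or 0.057 with the set term) and Ahr (-4.25, adjusted p = 0.139, or 0.0989).

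In the Tfh programme, 3 of 28 measured genes rose and 0 fell, against 1.2% and 1.46% of all genes. With the set term 11 rose and 1 fell, against 6.09% and 4.69%, with medians of 0.060 and 0.70. The 3 were Ascl2, Rgs16 and Il4, the cytokine of class switching to IgG1 and IgE. Il4 had 11.39, 11.54 and 12.51 in Venus-high Tfh, 10.64, 10.98 and 12.30 in Venus-low Tfh, and 7.75 and 5.49 in PD1-intermediate Th (5.19 ± 0.74, adjusted p = 0.00696, and 0.0757 without PD1-intermediate array 2). Bcl6, the master regulator of Tfh cells, had 14.93, 14.79 and 14.75 in Venus-high Tfh against 14.11 and 13.85 in PD1-intermediate Th, which passed only with the set term (0.88, adjusted p = 0.0338; main 0.85, adjusted p = 0.133). Maf, a factor for Il21 and Il4, had 13.99, 14.15 and 14.47 against 14.15 and 14.11, and Il21 itself had 10.71, 11.63 and 12.61 against 11.59 and 11.09. Neither passed in either fit, and their groups overlapped. Pou2af1, Cxcr4 and, in the inhibitory receptor list, Lag3 and Cd160 passed with the set term alone, higher by 1.57, 1.42, 3.08 and 2.69. Of 25 measured inhibitory and costimulatory receptors 0 passed in the main fit, with 5 higher and 0 lower with the set term, against 6.09% and 4.69% of all genes.

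Of 11 measured helper cytokines 2 rose (Il4 and Csf1), 1 fell (Il2), against 1.2% higher and 1.46% lower over all genes, and Ifng joined the rises with the set term, with list medians of -0.48 and -0.046. Csf1, the growth factor of macrophages, had 9.49, 9.94 and 11.05 in Venus-high Tfh, 7.68, 7.57 and 9.43 in Venus-low Tfh, and 4.84 and 4.85 in PD1-intermediate Th. It was at least 35.8-fold higher, and lost its call without Venus-high array 2 or either PD1-intermediate array (adjusted p from 0.0548 to 0.177). Neuropeptide and neurotrophin genes included the largest rise of all, Gal. Of 6 measured genes 2 rose and 1 fell in both fits, against 1.2% and 1.46% of all genes, or 6.09% and 4.69% with the set term. Without the level filter the main fit had the same calls among 13 genes, with a median of 0.026. Ntf5, a neurotrophin gene, had 8.61, 8.30 and 9.61 in Venus-high Tfh, 2.83, 3.78 and 5.93 in Venus-low Tfh, and 3.38 and 2.67 in PD1-intermediate Th, at least 14.3-fold higher. Ramp3, a partner of receptors for the peptides adrenomedullin and amylin, had 6.39, 6.64 and 6.97 in Venus-high Tfh, 9.12, 9.05 and 10.23 in Venus-low Tfh, and 11.12 and 11.14 in PD1-intermediate Th (-4.47 ± 0.51, adjusted p = 0.00228). In the guidance list 0 of 12 measured genes rose and 1 fell, against 1.2% and 1.46% of all genes. With the set term 2 rose and 2 fell, against 6.09% and 4.69%. The fall in the main fit was Sema4a, a semaphorin gene, with 5.62, 6.49 and 5.11 in Venus-high Tfh against 10.63 and 10.92 in PD1-intermediate Th.

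Of 27 immediate early genes of T cell receptor signalling 2 rose and 0 fell, against 1.2% and 1.46% of all genes. With the set term 6 rose and 1 fell, against 6.09% and 4.69%, with medians of -0.12 and 0.41. Nr4a2, a nuclear receptor gene, had 6.88, 6.95 and 6.75 in Venus-high Tfh against 4.73 and 4.18 in PD1-intermediate Th, and Spry1, a brake on MAP kinase signalling, 4.70, 6.67 and 6.94 against 2.14 and 2.19. Nr4a2 lost its call without any 1 of the 5 arrays (adjusted p from 0.0782 to 0.427), and Spry1 without Venus-high array 2 or 3 or either PD1-intermediate array (0.0638 to 0.226). Dusp4, a MAP kinase phosphatase gene, passed with the set term alone (4.07, adjusted p = 0.0006). Of 13 measured regulators of G protein signalling 1 rose (Rgs16) and 1 fell (Rgs14), against 1.2% and 1.46% of all genes. With the set term 3 rose and 2 fell, against 6.09% and 4.69%. Rgs14 fell by 1.06 ± 0.21 (adjusted p = 0.0333), a call lost without any 1 array and under quantile normalization (adjusted p = 0.324).

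Of 23 measured genes of glycolysis and the hypoxia response 2 rose and 0 fell in the main fit, against 1.2% and 1.46% of all genes, and 13 rose and 0 fell with the set term, against 6.09% and 4.69% of all genes, with medians of 0.32 and 0.62. With the arrays of set 3 alone 0 rose and 1 fell (median 0.66), and with the array set as a random block 14 rose and 1 fell. Pfkl, a phosphofructokinase chain, had 11.61, 11.39 and 11.66 in Venus-high Tfh, 10.94, 10.42 and 11.29 in Venus-low Tfh, and 10.39 and 10.02 in PD1-intermediate Th (1.34 ± 0.28, adjusted p = 0.0417). Slc16a3, a lactate exporter, had 9.12, 9.06 and 9.84 in Venus-high Tfh, 9.02, 8.29 and 9.49 in Venus-low Tfh, and 6.94 and 4.94 in PD1-intermediate Th (3.40 ± 0.62, adjusted p = 0.0234). Both lost their calls when single arrays were left out, Pfkl for any of the 5 (adjusted p from 0.0896 to 0.473) and Slc16a3 for any but PD1-intermediate array 1 (0.0579 to 0.227), and 1 of 3 kept Pfkl probe sets had the other sign. The glycolytic enzyme Tpi1 (1.47, adjusted p = 0.0126) and the hypoxia response genes Bnip3 (2.58, adjusted p = 0.00209) and Egln3 (1.57, adjusted p = 0.00363) passed with the set term alone.

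No gene of cell division passed in the main fit. Of 34 DNA replication genes and 39 genes of mitosis and the spindle 0 passed there, and 1 of each list was higher with the set term, with medians of -0.65 and -0.40, or -0.32 and 0.30 with the set term. The smallest p were those of Gins2 (-2.91, adjusted p = 0.209) and Chaf1b (-1.17, adjusted p = 0.155) for replication, and Espl1 (1.33, adjusted p = 0.381) and Incenp (0.53, adjusted p = 0.418) for mitosis. Of 23 type I interferon response genes 0 passed, with 2 lower with the set term, and Oas2 had the largest difference named (-4.14, adjusted p = 0.0782, or 0.0123 with the set term). Of 15 apoptosis genes 0 passed in either fit. Among 24 cholesterol and apolipoprotein genes the rises were Apoe and Apoc4 alone, with a list median of -0.49, or -0.078 with the set term, and 1 fell with that term. Of 11 inflammatory homing receptors Itgae alone fell, in both fits. Over all genes 1.2% rose and 1.46% fell in the main fit, and 6.09% rose and 4.69% fell with the set term. A p that misses the threshold does not show that these genes were equal.

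**Figure D3:**
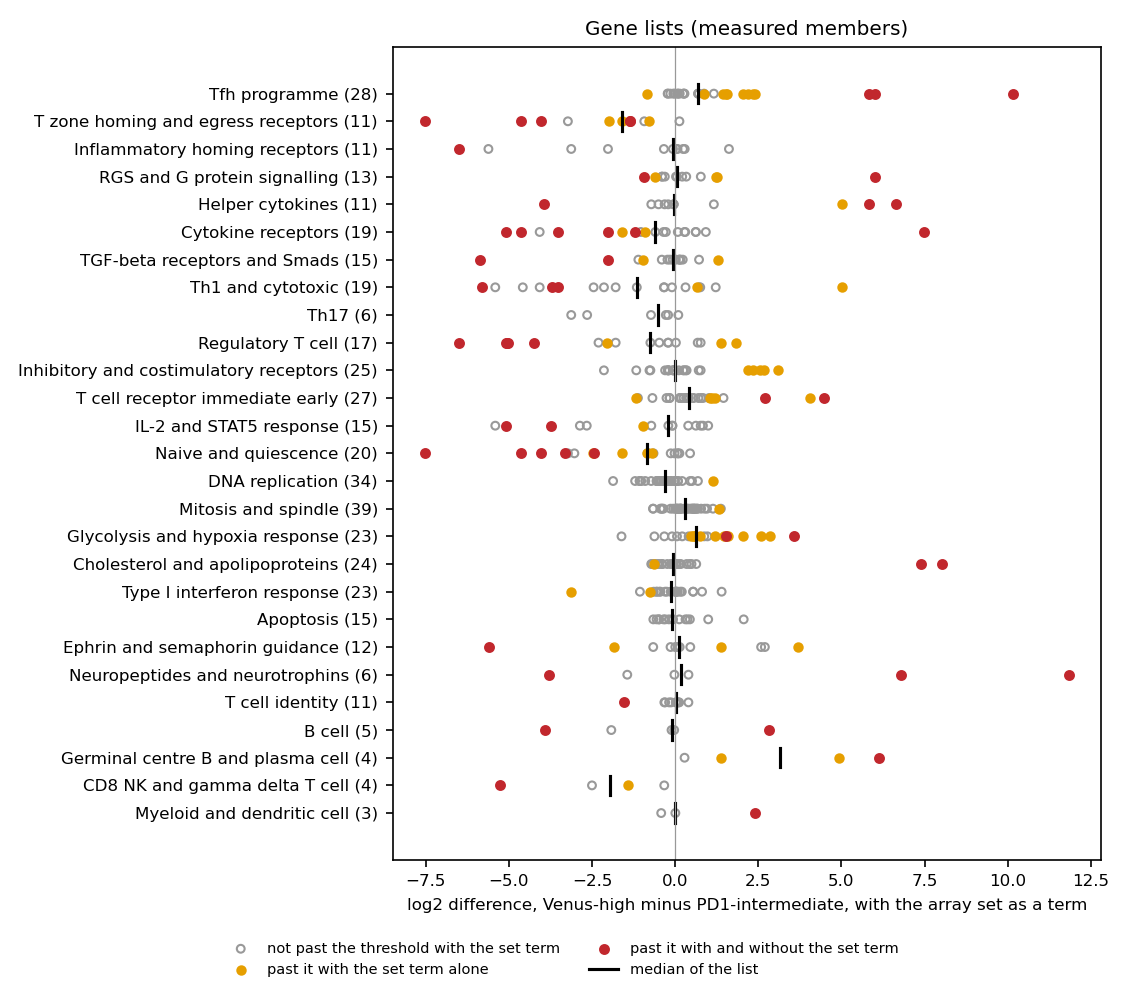
Each point is a measured gene of the list named at the left, with the number of measured genes in brackets, placed by its log2 difference with the array set as a term (Venus-high minus PD1-intermediate). Filled points passed that fit, red ones also the main fit, and the bar is the list's median, highest for the germinal centre B and plasma cell list. The 4 genes of that list include Mef2b, which passed the level filter through the Venus-high arrays alone.

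Among the measured markers of other cells, 1 of 5 B cell genes rose and 1 fell, 1 of 4 germinal centre B and plasma cell genes rose, 1 of 4 genes of CD8, NK and gamma delta T cells fell, and 1 of 3 myeloid genes rose, against 1.2% higher and 1.46% lower over all genes. With the set term 3 of 4 germinal centre B and plasma cell genes rose (list median 3.14) and 2 of 4 genes of CD8, NK and gamma delta T cells fell, against 6.09% and 4.69%. The 4 germinal centre B and plasma cell genes were those of 9 that passed the level filter. Mef2b passed it through the Venus-high arrays alone, so its rise and the list median follow in part from the filter. Without the filter 1 of 9 rose in the main fit, with a median of 0.083. With the set term and a floor at log2 5, 1 of 4 rose. Cd22, an inhibitory receptor gene of B cells, had 13.01, 12.14 and 12.38 in Venus-high Tfh, 12.28, 10.60 and 11.66 in Venus-low Tfh, and 10.13 and 9.32 in PD1-intermediate Th (2.79 ± 0.52, adjusted p = 0.0265). Cd72, another B cell receptor gene, went the other way, with 7.15, 6.46 and 5.96 in Venus-high Tfh against 10.18 and 10.50 (-3.81 ± 0.39, adjusted p = 0.0013). Mef2b, a germinal centre factor gene, had 6.39, 7.74 and 8.94 in Venus-high Tfh, 2.79, 2.64 and 3.30 in Venus-low Tfh, and 2.20 and 2.18 in PD1-intermediate Th, at least 6.45-fold higher (5.50 ± 0.60, adjusted p = 0.00182). Jchain, the joining chain of secreted antibody, had 4.13, 7.83 and 7.43 in Venus-high Tfh, 4.42, 4.98 and 8.33 in Venus-low Tfh, and 3.03 and 3.04 in PD1-intermediate Th, and passed with the set term alone (4.92, adjusted p = 0.0219). The plasma cell gene Sdc1, with 7.82, 7.61 and 8.39 in Venus-high Tfh against 7.46 and 6.68, also passed with that term alone (1.37, adjusted p = 0.0205). Of the defining B cell genes, Cd79a and Ms4a1 were at 2.13 to 3.44 on all 5 arrays. Ebf1, a B cell factor, had 6.89, 6.77 and 2.33 in Venus-high Tfh against 2.35 and 2.74 in PD1-intermediate Th. Pax5 had 5.67 on Venus-high array 2 and at most 2.05 on the other 4 arrays. Venus-low arrays 1, 2 and 3 had 6.69, 5.37 and 2.37 for Ebf1 and 2.06, 5.96 and 2.04 for Pax5. Both genes thus went with the array set, and their probe sets were displaced in 1 set. Cd79b had 2.503, 3.11 and 3.99 in Venus-high Tfh against 6.65 and 6.69 in PD1-intermediate Th. The levels of Cd22, Cd72 and Cd79b thus did not all lie on the same side. Klrd1, the NK receptor chain CD94, had 2.03, 1.99 and 2.74 in Venus-high Tfh against 7.56 and 8.94, at least 9.54-fold lower, and Cd68, a lysosomal gene of macrophages, had 9.26, 9.20 and 8.83 against 6.82 and 6.21 (2.58 ± 0.37, adjusted p = 0.00714). Thy1, a surface marker of T cells, was lower by a small step, with 13.41, 13.13 and 12.70 in Venus-high Tfh against 14.38 and 14.51 (-1.37 ± 0.26, adjusted p = 0.0279), which did not pass with quantile normalization (0.0791) or with each array centred on its median (0.477). Cd22 lost its call without any 1 of the 5 arrays (adjusted p from 0.0563 to 0.323), Thy1 without Venus-high array 2 or 3 or either PD1-intermediate array (0.0524 to 0.311), and Cd68 without PD1-intermediate array 2 (0.126).

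The levels in Venus-low Tfh were set on a scale from PD1-intermediate Th (0%) to Venus-high Tfh (100%), with arrays of set 3 alone, as a description. For the 119 genes higher in Venus-high Tfh the median position of Venus-low array 3 was 60%. It lay under 25% for 28 genes, between 25% and 75% for 53, and above 75% for 38. For the 144 lower genes the median was 42.6%, with 45 genes under 25%, 65 between and 34 above 75%. Genes thus occupied the whole scale. Near 0% were Apoe (0.038%) and Runx3 (2.04%), whose Venus-low array 3 was at the PD1-intermediate level. At the other end were Acvrl1 (100%) and Lgals3 (112%), whose Venus-low level was that of Venus-high cells. Ccr7 (34.8%), Gpr18 (46.3%), Ascl2 (79.1%) and Gal (78.8%) lay between. The Venus-high array enters the selection of the genes and the scale, and the Venus-low arrays do not enter the selection except through the spread.

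**Figure D4:**
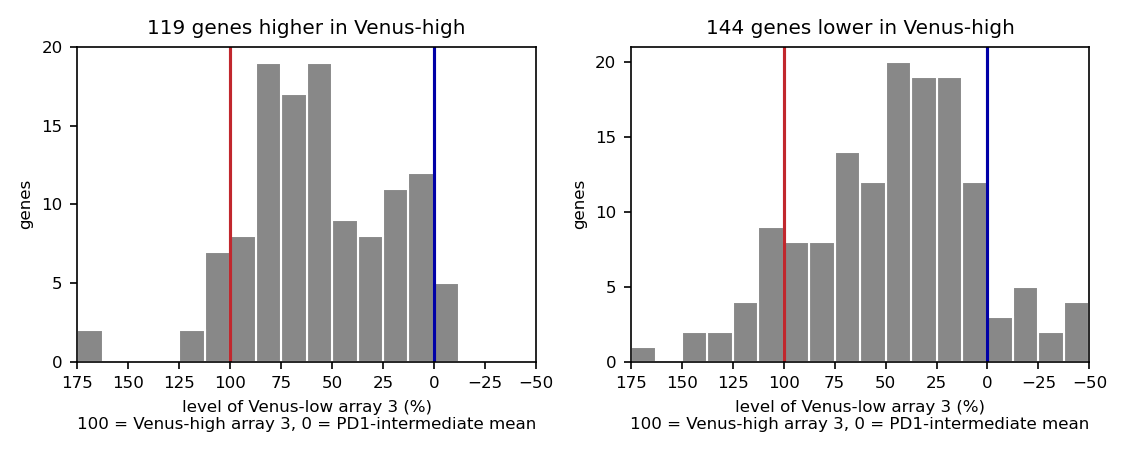
Number of genes by the position of Venus-low array 3 on a scale from Venus-high array 3 (100%, red line) to the mean of both PD1-intermediate arrays (0%, blue line), for the 119 higher (left) and 144 lower genes (right). Values beyond the ends of the axis are drawn in the end bars, and the medians are 60% and 42.6%.

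**Figure D5:**
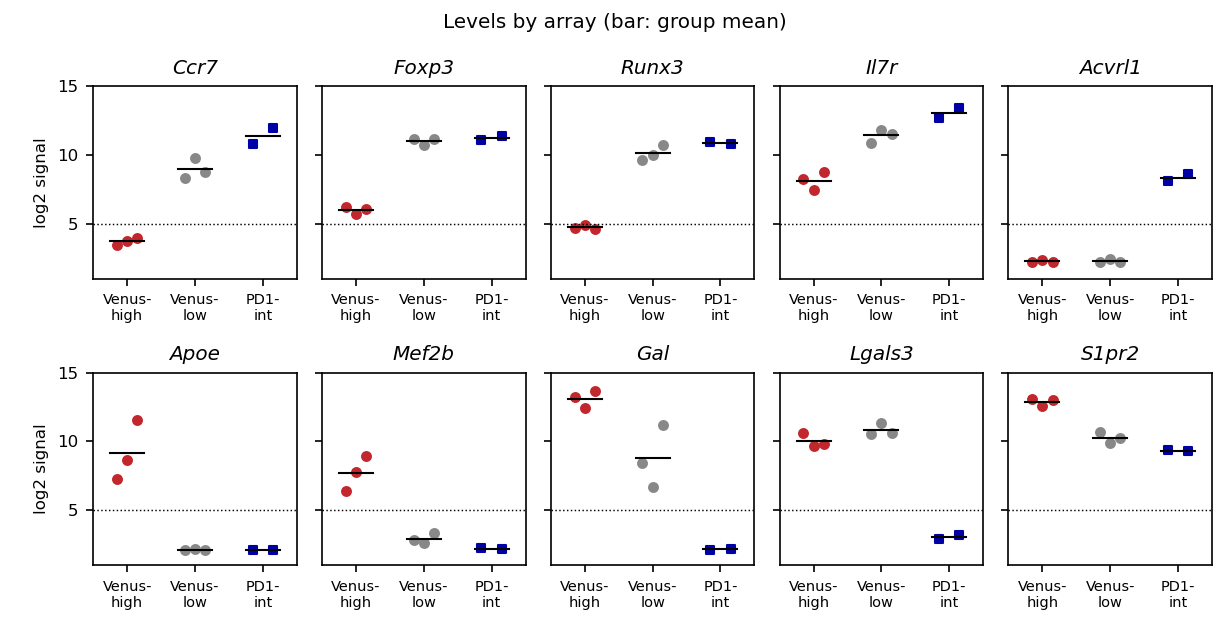
Log2 signal per array (points) and group mean (bars) of 10 genes in Venus-high Tfh (red), Venus-low Tfh (grey) and PD1-intermediate Th (blue), with the dotted line at log2 5. Foxp3 and Runx3 are low in Venus-high Tfh alone among these 3 groups, Acvrl1 is low in both Tfh groups, Apoe and Mef2b are above the line in Venus-high Tfh alone, and Ccr7 and Gal are graded.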

How the data were processed

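RNA of sorted, pooled lymph node cells was measured on Affymetrix mouse arrays. The deposited values are log2 signals, made by the authors with GCRMA per the submitters' processing notes, with no version given. Of 45101 probe sets, 34958 had 1 gene symbol and were used, 932 had several and 9211 none. The probe set with the highest mean was kept per gene, where it reached log2 5 on at least 2 arrays. limma 3.58.1 (R 4.3.3; lmFit, eBayes, 12 arrays, 5 groups) gave 2-sided p-values, adjusted by Benjamini-Hochberg over all 9893 genes, with a threshold of 0.05. Array sets were found by clustering the arrays' quantiles. Probe sets displaced by over 3 log2 units in 1 set (698 of the tested genes) were not named among the largest changes. The text names the 15 largest rises and falls, up to 10 each way within the set, up to 4 members per list past the threshold (or the 2 smallest p), and cell markers. Ifng, Bcl6, Maf, Il21, Pou2af1, Cxcr4, Lag3, Cd160, Dusp4, Tpi1, Bnip3, Egln3, Gpr183, Itgb7, Actn1, Satb1, Il4ra, Il17ra, Foxp3, Nrp1, Nt5e and Zbtb46 were also chosen after their values were seen, as were the genes of the closing section. Members and lists were chosen with earlier results of these data known. The code was tested on simulated data. Promoters are from RefSeq.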

Additional observations from a re-analysis of the deposited data

How the results depend on the processing

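The main count of 263 genes was 1066 with the array set as a term, 1252 with it as a random block (correlation 0.869), 470 after quantile normalization, 427 with each array centred on its median, 123 for at least 2-fold, 80 with the 5 arrays of both groups alone and 167 with the arrays of set 3 alone, where 63 of the 263 were kept. The share of higher genes was 45.2% in the main fit, 56.5% with the set term, 59.1% after quantile normalization and 64.4% after centring. Array weights gave 7509, but the weights did not converge. With the replicate number as a block 3384 genes passed, 319 higher and 3065 lower. Deviations from the group mean correlated at -0.089 and -0.029 between same-numbered Venus-high and PD1-intermediate arrays. The deviations of 2 PD1-intermediate arrays mirror each other, so these values cannot decide whether the groups were paired. Venus-high and Venus-low arrays of 1 number share set and pool size, and their pairing was not tested. Alternatives chosen after seeing the data gave 1018 (set term, floor at log2 5) and 1098 (set term, no displaced probe sets). Leaving out 1 array gave 67 to 275. Among the named genes that were followed under each alternative, 4 changed sign. Ebf1 and Pax5 were not among those followed. They were higher in Venus-high Tfh in the main fit and lower with the set term. Cd4 was 0.017 with the set term, also with the floor or without displaced probe sets, and 0.078 after centring; Cd44 was 0.072 in set 3 alone; Maf was -0.068 and Il21 -0.21 with the replicate block, Il21 -0.92 as the mean of its probe sets, and without 1 array Maf ran from -0.062 to 0.18 and Il21 from -0.17 to 0.78. The causes were not tested. The few arrays and the level of log2 5 limit what could be detected.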

Other observations

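Further genes that passed the main test are given as values, chosen after their values were seen. Vdr, the vitamin D receptor, had 12.76, 13.50 and 12.96 in Venus-high Tfh, 10.89, 11.29 and 11.66 in Venus-low Tfh, and 7.56 and 7.57 in PD1-intermediate Th (5.51 ± 0.43, adjusted p = 0.000338). Nfil3, a basic leucine zipper factor gene, had 10.56, 10.86 and 11.61 in Venus-high Tfh against 7.88 and 6.84, and Zeb2, a zinc finger repressor gene, 6.48, 7.002 and 6.49 against 2.68 and 2.70. Cdkn1a, the cell cycle inhibitor p21, had 8.66, 8.88 and 10.39 in Venus-high Tfh against 5.18 and 3.60 in PD1-intermediate Th. Nfil3 and Cdkn1a lost their calls without PD1-intermediate array 2 (adjusted p = 0.11 and 0.183), and Zeb2 without Venus-high array 2 or either PD1-intermediate array (up to 0.158). Vdr kept its call without any 1 array.

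Other genes differed in where Venus-low Tfh stood. Kirrel3, an adhesion gene, had 8.06, 8.01 and 8.92 in Venus-high Tfh, 5.76, 5.32 and 5.56 in Venus-low Tfh, and 2.98 and 2.58 in PD1-intermediate Th. Cdh13, a cadherin gene, had 2.29, 2.46 and 3.75 in Venus-high Tfh, 2.32, 2.47 and 3.90 in Venus-low Tfh, and 8.23 and 7.90 in PD1-intermediate Th, at least 8.39-fold lower, a call lost without either PD1-intermediate array (up to 0.122). Tnc, the matrix protein tenascin C, had 10.77, 9.97 and 11.11 in Venus-high Tfh against 5.98 and 5.57. Gpr132, a G protein-coupled receptor gene, fell, with 9.55, 9.60 and 8.85 in Venus-high Tfh against 12.32 and 12.39 (-3.02 ± 0.31, adjusted p = 0.0013). S1pr3, another sphingosine-1-phosphate receptor, had 6.18, 7.05 and 10.26 in Venus-high Tfh, 2.06, 2.14 and 5.47 in Venus-low Tfh, and 2.03 and 2.04 in PD1-intermediate Th, and passed only with the set term (7.55, adjusted p = 0.00266; main 5.80, adjusted p = 0.0563).

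In the RefSeq order of protein-coding genes 11 pairs of called genes were adjacent, and in all 11 both genes had the same sign. Genes of other types can lie between them. How often adjacent genes share a sign over all tested genes was not computed, so the pairs are only a description. They included Cbfa2t3 with Acsf3, Il13ra1 with Zcchc12, Myl4 with Itgb3 and Foxp3 with Ppp1r3f.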
